A study of Mus musculus with 2 samples.

Results

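The strong shared peaks away from promoters are 859 places of open chromatin in mouse testis where DNase I cuts were dense in both libraries. None had a protein-coding start of GENCODE vM21 within 1000 bp, although 113 had an mRNA start of RefSeq that near. The members are 859 of the 101172 peaks in the longer list of replicate 1, and the longer list of replicate 2 has 117359. Members were chosen by their peak values, selected on a value of 3 or more in replicate 1 and in a replicate 2 peak that overlaps by at least 1 bp, and on a distance of over 1000 bp between the peak's edge and every protein-coding transcript start of GENCODE vM21. The value is the signal that the authors give each peak, and a pair of values below stands for replicate 1 and then replicate 2. Of 83530 replicate 1 peaks with any partner in replicate 2, 8918 were at 3 or more in both libraries, and 8059 of these lay within 1000 bp of a protein-coding start. The distance rule left the 859 members among 58022 shared peaks that were equally far from starts. The other 57163 of those, called weaker shared distal peaks here, and the 8059 strong shared promoter peaks are the sets the members are compared with. The members are not all separate places, since 8 of them overlap another member, and merging overlaps gives 855 places.

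The tissue was whole testis of 14-day-old male B6CASTF1/J mice, an F1 hybrid between C57BL/6 and a strain of castaneus origin. The labels give 1 group of 2 libraries, biological replicates 1 and 2, with no treatment and no second genotype or age. Replicate 1 is described as tissue of 3 males, and for replicate 2 the number of animals is not stated. Since 1 donor label is shared by the libraries, part of their spread may be technical and not between animals. Whole testis is a mixture of germ cells and somatic cells, and in such a mixture fewer cells of a type and weaker opening in each cell cannot be told apart. With 1 group there is no comparison between conditions, and every value below is a description with no test.

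As a check of the tissue label, marker genes with a promoter peak in both libraries were counted. These were 8 of 8 spermatogonial markers, 6 of 6 markers of meiotic prophase, 6 of 6 Sertoli markers and 3 of 4 Leydig markers. Of 4 blood markers 1 had such a peak (Epor). A longer-list peak of any value within 1000 bp of a start was enough. The share over all genes was not computed, so these counts alone do not settle the tissue. The depth in reads is unknown, but the values below 1 in each library were whole multiples of a smallest step, 0.00538 in replicate 1 and 0.00377 in replicate 2. The limit of 3 corresponds to 558 steps in replicate 1 and 795 steps in replicate 2. If a step is a sequenced event, counting error at the limit would be 4.23% and 3.55%.

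DNase-seq reads out DNA that is not wrapped tightly into nucleosomes. Such hypersensitive sites mark promoters, enhancers and insulators, and a protein bound inside a site can shield its bases and leave a footprint, a short stretch with fewer cuts. The insulator protein CTCF, the general promoter factors NFY and SP, and the transcription machinery of RNA polymerase III at tRNA genes are among the best-known occupants of such sites. Repeated sequence is a special case, because reads from many near-identical copies can be placed at the few copies that the reference assembly holds.

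The sequences printed here stand for the kinds of place found among the members: sequence that aligns to other places in the genome, sequence of an rRNA gene, a tRNA gene, a start of a noncoding gene, and sites that carry a CTCF, RFX or YY1 consensus. All are from the GRCm38.p6 assembly (the mm10 build) as distributed by RefSeq, are given on the plus strand unless said otherwise, and read 5′ to 3′. The first lies at chrX:143482981-143483140 between genes and has the highest value of all members, and the capitals are the stretch that aligned elsewhere in the genome.

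chrX:143482981-143483140: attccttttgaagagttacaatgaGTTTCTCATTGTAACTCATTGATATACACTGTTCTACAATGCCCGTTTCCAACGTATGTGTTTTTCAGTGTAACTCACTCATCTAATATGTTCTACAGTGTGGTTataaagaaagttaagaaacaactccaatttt

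The next is at chr17:39846781-39846900 inside the RefSeq pseudogene Rn18s-rs5, a copy of 18S ribosomal RNA sequence. It is printed without capitals because its whole length has an identical copy on chromosome 6.

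chr17:39846781-39846900: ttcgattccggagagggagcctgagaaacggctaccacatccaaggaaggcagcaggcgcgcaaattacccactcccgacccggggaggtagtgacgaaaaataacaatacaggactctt

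A pair of members on chromosomes 6 and 12 shows a sequence that recurs at distant places. In the chromosome 6 member the capitals are the stretch that aligned to chromosome 12, and its first bases match sequence just outside the chromosome 12 member. In the chromosome 12 member the capitals are the part of that stretch inside it. The member on chromosome 12 is given on the minus strand so that the shared stretches read the same way.

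chr6:49236421-49236620: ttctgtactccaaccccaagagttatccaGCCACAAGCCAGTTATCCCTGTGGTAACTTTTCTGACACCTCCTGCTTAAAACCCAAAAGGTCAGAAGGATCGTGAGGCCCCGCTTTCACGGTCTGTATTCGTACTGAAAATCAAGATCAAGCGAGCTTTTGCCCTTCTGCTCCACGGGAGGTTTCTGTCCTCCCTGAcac

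chr12:78350861-78351100: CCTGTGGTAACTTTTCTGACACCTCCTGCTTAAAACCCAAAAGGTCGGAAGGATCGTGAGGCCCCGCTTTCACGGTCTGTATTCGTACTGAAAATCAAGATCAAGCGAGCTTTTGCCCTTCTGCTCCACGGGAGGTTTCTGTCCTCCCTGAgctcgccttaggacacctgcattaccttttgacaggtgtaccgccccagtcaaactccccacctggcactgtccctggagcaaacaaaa

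At chr7:35234761-35234980 a member covers a threonine tRNA gene, n-TTagt9, whose annotated bases run from 35234770 to 35234843 on the minus strand. The capitals mark the B box, the internal promoter element of tRNA genes.

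chr7:35234761-35234980: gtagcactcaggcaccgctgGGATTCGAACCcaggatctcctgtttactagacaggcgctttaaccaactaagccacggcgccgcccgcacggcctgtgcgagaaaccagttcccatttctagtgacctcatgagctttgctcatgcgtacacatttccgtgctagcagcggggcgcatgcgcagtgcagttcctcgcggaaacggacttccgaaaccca

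The strongest member with a CTCF consensus lies between genes at chr7:73618401-73618660, and the capitals mark that consensus.

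chr7:73618401-73618660: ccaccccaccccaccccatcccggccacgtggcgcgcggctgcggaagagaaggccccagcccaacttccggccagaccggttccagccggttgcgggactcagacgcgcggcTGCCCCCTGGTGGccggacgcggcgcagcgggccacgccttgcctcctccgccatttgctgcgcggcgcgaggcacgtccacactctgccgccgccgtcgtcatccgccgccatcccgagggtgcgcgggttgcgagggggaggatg

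The member at the start of the noncoding gene Mir22hg, host of the microRNA miR-22, carries the NFY consensus CCAATNAG in capitals.

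chr11:75461401-75461660: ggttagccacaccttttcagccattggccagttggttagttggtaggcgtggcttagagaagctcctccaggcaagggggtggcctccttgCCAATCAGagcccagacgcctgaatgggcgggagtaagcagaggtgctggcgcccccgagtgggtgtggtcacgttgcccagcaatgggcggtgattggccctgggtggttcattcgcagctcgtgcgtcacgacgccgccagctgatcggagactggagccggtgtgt

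A member at chr2:30658501-30658740 holds 2 copies of the RFX consensus, the X box read by RFX factors, both in capitals.

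chr2:30658501-30658740: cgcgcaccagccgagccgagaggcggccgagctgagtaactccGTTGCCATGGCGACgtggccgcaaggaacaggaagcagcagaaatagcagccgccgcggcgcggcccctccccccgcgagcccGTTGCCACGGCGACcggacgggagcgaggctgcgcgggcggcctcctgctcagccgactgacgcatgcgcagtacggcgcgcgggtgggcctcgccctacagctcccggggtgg

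The last is a 300-bp stretch of a member in an intron of Peg3, an imprinted gene expressed from the paternal copy. The capitals mark 2 of its 3 copies of the YY1 consensus AAGATGGC.

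chr7:6728681-6728980: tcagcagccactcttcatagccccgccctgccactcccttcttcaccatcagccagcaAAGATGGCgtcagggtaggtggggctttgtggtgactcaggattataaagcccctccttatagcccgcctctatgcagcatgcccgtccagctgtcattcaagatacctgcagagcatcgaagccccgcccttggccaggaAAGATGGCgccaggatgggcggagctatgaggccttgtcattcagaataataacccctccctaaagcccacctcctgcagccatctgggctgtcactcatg

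Members had a median value of 5.01 in replicate 1 and 4.74 in replicate 2, a mean of 4.87 ± 0.193 (SD, n = 2). Weaker shared distal peaks had medians of 0.532 and 0.562, and strong shared promoter peaks 7.403 and 6.93. Since the value chose the members, their distance from the weaker distal peaks is not a finding. Of the 859, 114 had a mean of 10 or more and 12 had a mean of 20 or more, so a short tail of very strong places stands above the rest.

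**Figure D1:**
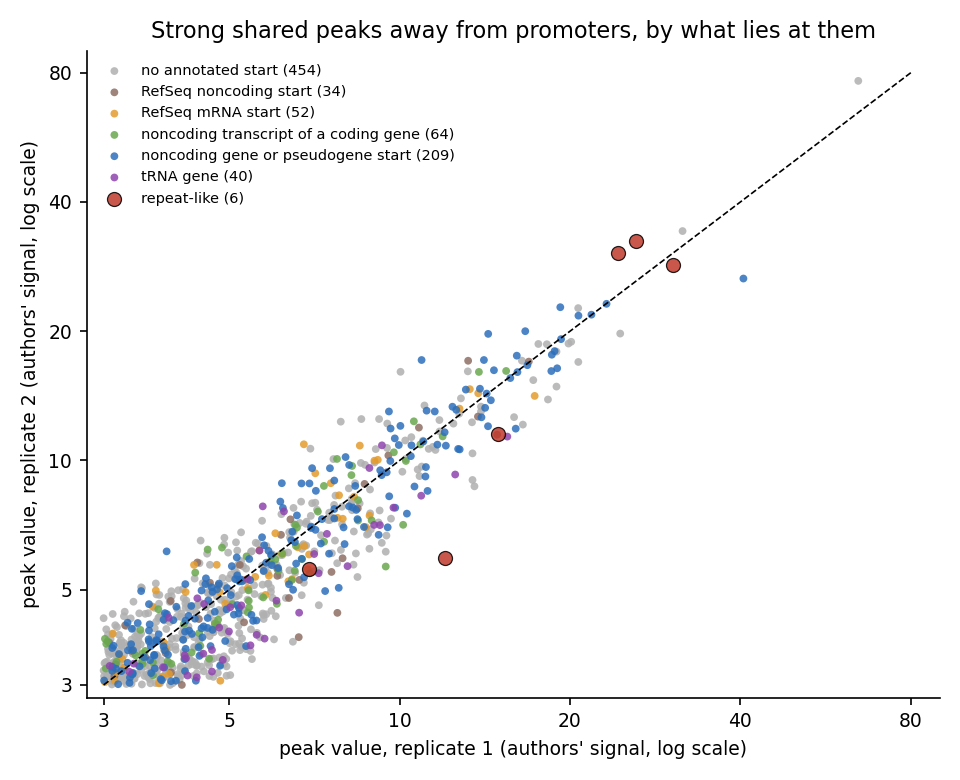
Peak values of the 859 members in replicate 1 (x axis) and replicate 2 (y axis), both on log scales and in the authors' signal unit; each point is a member, coloured by what the annotation or the sequence shows at it, and the dashed line marks equal values. The 12 members with a mean of 20 or more include 3 of the 6 repeat-like members, and the repeat-like point farthest below the line is the member on chromosome 12 with values of 12.04 and 5.92.

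Repeated and near-repeated sequence was rare among the members but frequent at the top of the list. A member was called repeat-like where its bases, read as overlapping 32-base words, had a median of 5 or more exact copies in the assembly. That held for 6 of 859 members (0.698%), for 322 of the weaker shared distal peaks (0.563%) and for 4 of the strong promoter peaks (0.0496%). The 6 had median values of 19.6 in replicate 1 and 20.1 in replicate 2.

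The strongest member, chrX:143482981-143483140, had 64.6 in replicate 1 and 76.6 in replicate 2, a mean of 70.6 ± 8.46 (SD, n = 2), above every other member in both libraries. Its nearest protein-coding gene was Pak3, a kinase of nerve cells, 35451 bp away. It is not repeat-like by the 32-base rule, with a median of 1 copy and at most 7 copies of any word. By the looser limit of 5 alignments, used below, it would count as repeat-like. It had 16 alignments of at least 80% identity over 50% or more of its length, itself included. The closest other one covered 105 bases at 97.1% identity on chromosome 6, and others lay together on chromosome 2 near 98662633 and 98666238. Both libraries had 3 footprints there.

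The second, chr17:39846781-39846900 in 18S rRNA sequence, had 40.5 in replicate 1 and 26.5 in replicate 2, a mean of 33.5 ± 9.88 (SD, n = 2), higher in replicate 1. GENCODE annotates a long noncoding RNA, Gm42418, over the same place. Its identical copy on chromosome 6 begins at 3200870. As background, ribosomal RNA genes lie in long arrays that genome assemblies hold only in part.

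The 6 repeat-like members differed widely in copy number. The member chr12:120028681-120028794 had a median of 1801 copies per 32-base word, no CpG, and values of 12.04 and 5.92. It is the only member, of 859, whose libraries differed by more than 2-fold. On chromosome 9, chr9:3006800-3006920 had 44.5 copies with values of 6.91 and 5.58, and chr9:3002041-3002220 had 35 copies with values of 30.4 and 28.6, a mean of 29.5 ± 1.30 (SD, n = 2), and 356 alignments. These 3 were masked over their whole length. A member at chr3:5860361-5860530 had 7 copies with values of 14.9 and 11.6.

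A neighbouring pair on chromosome X, chrX:169997961-169998240 and chrX:169998261-169998420, had 6 copies each. The values were 26.2 and 32.4 in the first and 24.3 and 30.4 in the second, higher in replicate 2 at both. Their nearest protein-coding start was that of Gm21887, 11239 bp from the nearer of them. Masked repeats were scarce among the members. The soft-masked bases of the assembly covered 50% or more of 8 members (0.931%), of 3327 weaker distal peaks (5.82%) and of 8 promoter peaks (0.0993%), while 521 members (60.7%) held no masked base.

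Looser matching found more. The setting, chosen after seeing the data, was alignments of at least 80% identity over at least 50% of the peak. With it 46 members (5.36%) had 5 or more matches and 774 had none but their own place. Only members were aligned, so no share in the other sets stands beside these counts. By the same alignments, 13 members on 8 chromosomes were linked to one another or to another place that they have in common. A link allowed a distance of up to 1000 bp, so linked members need not share the same bases. The group was assembled after its values were seen. In the printed pair, 168 bases of the chromosome 6 member aligned at 99.4% identity to chr12:78350950-78351117, which runs past the end of the chromosome 12 member, so the capitals there show the part inside it. The 13 were nearly free of masked bases, with at most 17.3% masked, and no annotation used here gives them a common name. Whether they are ribosomal RNA gene sequence was not tested, since no complete ribosomal RNA gene unit was available for comparison. Each had from 2 to 23 alignments. Whether reads from other copies of these sequences, in or outside the assembly, add to the values of the 13 was not tested. Their values ran from 4.69 to 24.5 in replicate 1, with a median of 8.76, and from 3.46 to 19.7 in replicate 2, with a median of 6.72. All 13 were higher in replicate 1, as were 492 of the 859 members (57.3%).

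The strongest of the group was chr9:123461921-123462100, at 24.5 and 19.7, in the untranslated end of Lars2, a mitochondrial leucyl-tRNA synthetase. It was followed by chr6:49236421-49236620, at 20.7 and 17.0, and chr16:35981661-35981820, at 19.0 and 16.4. Their nearest protein-coding starts were those of Limd1, Igf2bp3 and Kpna1. The chromosome 3 member with 7 copies belongs to the group as well.

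Noncoding genes were the most frequent annotated feature at the members. Within 1000 bp of a start of a noncoding gene or pseudogene lay 219 members (25.5%), 3666 weaker shared distal peaks (6.41%) and 1322 strong promoter peaks (16.4%). At 117 of the 219 members the start was inside the peak. Long noncoding RNAs made up the bulk, with 168 members (19.6%) against 3.79% of weaker distal peaks. Small RNA genes were near 43 members (5.01%), against 0.838% of weaker distal peaks and 2.27% of promoter peaks. The small RNA start was inside the peak at 6 of the 43. Pseudogenes were near 22 members (2.56%), against 1.44% and 0.732% in the same order. The unconfirmed gene models that GENCODE calls TEC were near 25 (2.91%), against 0.577% and 1.97%. A member can have several of these.

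**Figure D2:**
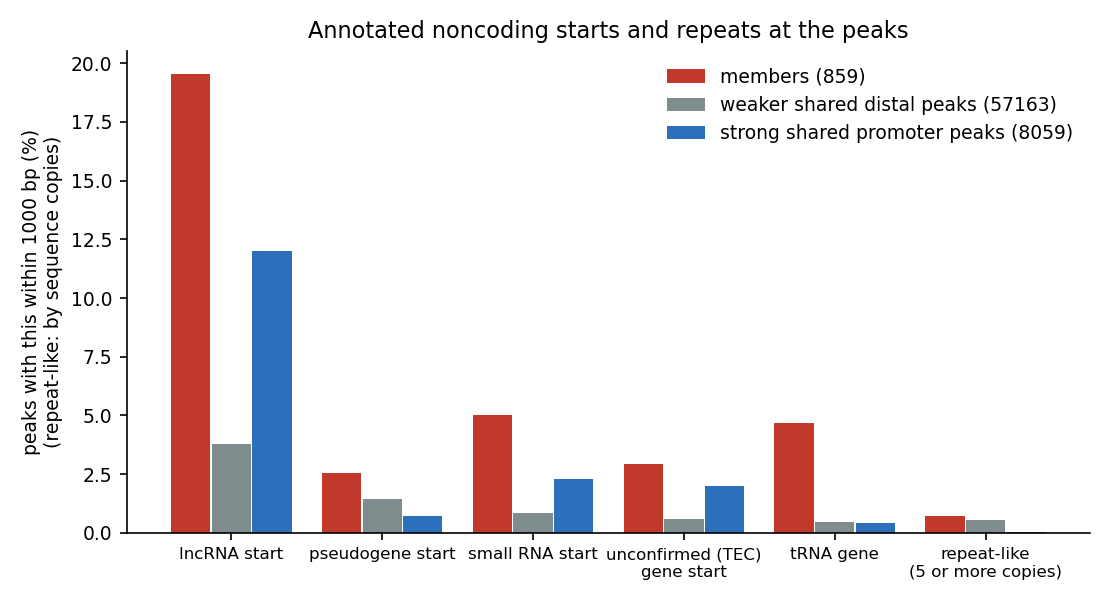
Percentage of peaks (y axis, from 0) with each kind of annotated start or gene within 1000 bp, and of peaks called repeat-like by sequence copies, for the 859 members, the 57163 weaker shared distal peaks and the 8059 strong shared promoter peaks. The members exceed both other sets in every category shown. Their largest shares are at long noncoding RNA, small RNA and tRNA genes, with 19.6%, 5.01% and 4.66%. For repeat-like peaks the members are close to the weaker distal peaks, at 0.698% against 0.563%.

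The share at a noncoding start was larger in the strongest members. Of the 100 with the highest mean, 42 (42.0%) were within 1000 bp of such a start, against 177 of the other 759 (23.3%). The strongest, after the 18S rRNA place, was chr13:48546541-48546800 at the long noncoding RNA 6720427I07Rik, with 23.2 in both libraries. Next came chr7:73558501-73558780, with 21.8 and 21.9, at 1810026B05Rik, which RefSeq calls Chaserr, a long noncoding RNA that restrains its neighbour Chd2 in mice. It had 7 footprints in replicate 1 and 8 in replicate 2.

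The next places were close in value. The member chr5:25529581-25529840 at 1700096K18Rik had 20.7 and 21.7. The Mir22hg start had 19.2 in replicate 1 and 22.7 in replicate 2, with 5 and 6 footprints, and 1700028E10Rik at chr5:151368501-151368760 had 19.3 and 19.2. B330016D10Rik, a pseudogene 7284 bp from Spen, had 18.8 and 17.98. At chr13:107890181-107890400 the gene model Zswim6, typed as a processed transcript in this GENCODE release although the gene encodes a zinc-finger protein, had 16.7 and 20.003.

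Several well-known noncoding RNAs were at members, named here after their values were seen. The nuclear RNA Malat1 had members of 14.5 and 13.8 at 889 bp from a start and of 5.51 and 4.23 over a start. Snhg8, a host gene of small nucleolar RNA, had 16.2 and 16.1, and Snhg15 and Snhg12 had means of 8.79 ± 1.46 and 5.21 ± 0.119 (SD, n = 2). Crnde, next to Irx5, had 11.5 and 13.004, Dancr 7.67 and 8.98, and Dleu2, host of the miR-15a and miR-16-1 cluster, 11.1 and 9.65.

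Antisense RNAs of imprinted domains were among these. Nespas, transcribed in the imprinted Gnas domain, had 12.6 and 13.1 at chr2:174295421-174295600. Kcnq1ot1, the antisense RNA of the Kcnq1 domain, had 4.80 and 5.17, and Ftx, a noncoding gene of the X-inactivation centre, had 4.55 and 5.31. In small RNA genes, the signal recognition particle RNA gene Rn7s2 had 11.2 and 8.49, the minor spliceosomal RNA Rnu11 had 3.60 and 3.83 at the stronger of its members, the telomerase RNA Terc 4.19 and 3.64, and Scarna2 5.21 and 5.23. The microRNA genes Mir210 and Mir132 had 7.67 and 7.33, and 3.801 and 3.08, with Mir210 at 248 bp from its peak.

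tRNA genes were near 40 members (4.66%), 252 weaker shared distal peaks (0.441%) and 34 promoter peaks (0.422%). At 24 of the 40 the tRNA start was inside the peak. Peak midpoints lay a median of 30.5 bp upstream of the tRNA start, and 28 of 40 were on the upstream side. RefSeq lists 403 nuclear tRNA genes on these chromosomes, and 59 of them (14.6%) had a member within 1000 bp while 267 (66.3%) had a shared peak of any value. Chromosome 11 held 11 of the 40 members and chromosome 13 held 5.

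Values at tRNA genes ran from 3.08 to 15.5 in replicate 1, with a median of 5.42, and from 3.13 to 11.4 in replicate 2, with a median of 4.58. Replicate 1 was higher at 77.5% of the 40, against 57.3% of all 859 members. A match to the B box was found in 12 of the 24 members with a tRNA start inside, and in 13 members in all. The other is the 18S rRNA place, a 120-bp peak whose 200-bp search window reaches past its edges. In the printed member the B box lay under a footprint in both libraries, from base 35234769 to 35234804 in replicate 1 and from 35234768 to 35234803 in replicate 2. That member had 9.02 and 7.08, with 3 footprints in each.

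Other annotated starts accounted for a further part of the list. Starts of noncoding transcripts of protein-coding genes were within 1000 bp of 80 members (9.31%), against 3.64% of weaker distal peaks and 69.0% of promoter peaks. The mRNA starts listed by RefSeq were within 1000 bp of 113 members (13.2%), against 2.91% and 99.1%. At 51 of the 113 the RefSeq mRNA start was inside the peak. When each member was put in the first class that it met, in the order repeat-like, tRNA gene, noncoding gene or pseudogene, noncoding transcript, RefSeq mRNA and RefSeq noncoding start, the counts were 6, 40, 209, 64, 52 and 34. No annotated start was within 1000 bp of the remaining 454 members (52.9%), against 84.9% of weaker shared distal peaks.

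The 454 members with no annotated start had median values of 4.65 and 4.40, below the 5.51 and 5.31 of the members at noncoding genes. Of them 249 lay between genes. Apart from the places already described, the strongest in this class were chr15:99735661-99735920, at 31.6 and 34.2, and chr13:58177621-58177800, at 20.7 and 22.6. The first lies in the untranslated end of Cers5, a ceramide synthase, and holds no CpG, and the nearest protein-coding start was that of Cox14, 10043 bp away. The second lies in the untranslated end of Ubqln1, a ubiquitin-binding protein. Both had 1 alignment in the genome, their own.

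These were followed by places between genes with many CpGs and even values. The member chr14:65343841-65344020 near Zfp395 had 20.1 and 18.9, chr7:38084881-38085220 near the cyclin gene Ccne1 had 19.9 and 18.7, and chr15:73067521-73067800 near Trappc9 had 18.9 and 17.9. Close to Ptma, the prothymosin gene, chr1:86525281-86525500 had 18.2 and 18.7. Those members were chosen after their values were seen.

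Base composition differed between the sets. Median GC was 62.8% in members, 52.3% in weaker shared distal peaks and 66.4% in strong promoter peaks. The ratio of observed to expected CpG, which is low over most of the genome and high in CpG islands, had medians of 0.702, 0.256 and 0.878 in the same order of sets. A ratio of 0.6 or more was reached by 533 members (62.0%), 5777 weaker distal peaks (10.1%) and 7481 promoter peaks (92.8%).

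**Figure D3:**
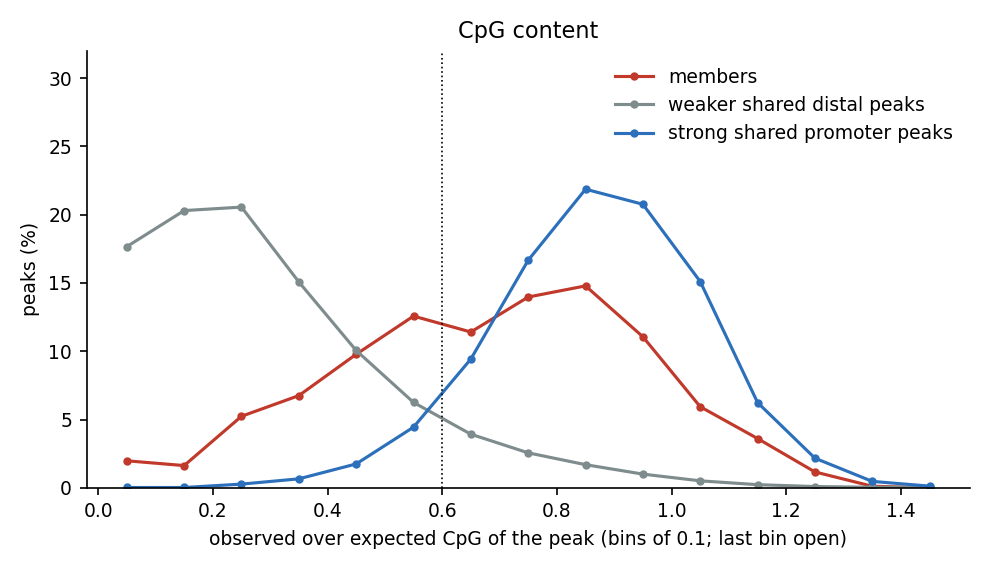
Percentage of peaks (y axis) by the ratio of observed to expected CpG in the peak (x axis, bins of 0.1), for members, weaker shared distal peaks and strong shared promoter peaks; the dotted line is at 0.6. The member curve lies mostly above 0.6, as the promoter curve does, with a shoulder below it, and the weaker distal curve lies mostly below 0.3.

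CpG content and annotation moved together. At noncoding gene starts 174 of 209 members (83.3%) had a ratio of 0.6 or more, and at tRNA genes 36 of 40. Among members with no annotated start it was 219 of 454 (48.2%), still far from the 7.66% of weaker distal peaks with no annotated start. The 65 members with no start and a ratio under 0.3 had a median mean value of 3.94, and the 219 at 0.6 or more had 5.13. Introns of protein-coding genes held 26 of the 65 and 47 of the 219.

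Most members lay between genes. The midpoint was between genes in 453 (52.7%), in an intron of a protein-coding gene in 207 (24.1%), in an exon of a noncoding gene or transcript in 75 (8.73%), in an intron of a noncoding gene in 52 (6.05%), in a coding exon in 39 (4.54%) and in a UTR in 33 (3.84%). Among weaker shared distal peaks 43.6% were between genes and 40.4% in introns of protein-coding genes. The strongest members in coding exons were chr9:20878141-20878460 near Angptl6, at 17.3 and 14.1, chr4:124751401-124751640 in the Inpp5b region, at 15.7 and 15.6, and chr17:34587501-34587700 near Gpsm3, at 10.1 and 7.08. The first is also within 1000 bp of a RefSeq mRNA start, and the second is 47 bp from the noncoding gene Gm12915.

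The nearest protein-coding start was a median of 9834 bp away, against 27431 bp for weaker shared distal peaks. Of the members 278 (32.4%) were within 5000 bp, 296 (34.5%) over 5000 and up to 20000 bp, 157 (18.3%) up to 50000 bp and 128 farther. The farthest was chr1:102628161-102628340, 2140189 bp from Cdh20, at 5.15 and 4.82. It belongs to the group of 13 linked by sequence. The other 4 of the farthest 5 were near Pcdh18 at the noncoding gene 1700018B24Rik, near Ddx18, near Gm21863 at the gene model Gm5953, and near Robo2, with means from 3.70 to 5.78.

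A total of 731 protein-coding genes were nearest to a member, 634 of them to 1 member and 23 to 3 or more. Kdm6b, a histone demethylase, and Actg1, a cytoplasmic actin, had 5 members each, and Chd2 and Ptma had 4 each. Within 1000 bp of another member lay 110 of the 859. No such count for the other sets stands beside it, so whether members cluster more or less than other peaks was not tested. By chromosome, 100 members were on chromosome 11, which is 2.56% of its shared distal peaks, and 79 on chromosome 7 (2.30%). Chromosome X had 18 of 1563 (1.15%), against 840 of 56410 (1.49%) on the autosomes, and chromosome Y had 1.

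Members were also counted by nearest genes known for testis cell types. Gene lists for spermatogonia, meiosis, the piRNA pathway, Sertoli cells, Leydig cells and myoid or stromal cells hold 153 genes, of which 152 matched a symbol. They were nearest to 7 members (0.815%) and to 729 weaker shared distal peaks (1.28%). Spermatogonial genes were nearest to 3 members (0.349%) and to 0.355% of weaker distal peaks. Meiosis genes were nearest to 1 member (0.116%), against 0.0717%, Leydig genes to 1 (0.116%), against 0.138%, and myoid or stromal genes to 2 (0.233%), against 0.250%. Genes of the piRNA pathway and of Sertoli cells were nearest to 0 members, against 43 (0.0752%) and 234 (0.409%) of the weaker distal peaks.

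The strongest of the 7 was chr15:101246301-101246580, 7689 bp upstream of Nr4a1, an orphan nuclear receptor of steroid-producing cells, at 10.2 and 11.1. Near Mylk, the smooth-muscle myosin kinase, a member 39641 bp away, over a RefSeq mRNA start, had 6.59 and 6.98. A member 33228 bp from Id4, a gene of spermatogonial stem cells, and within 1000 bp of a RefSeq noncoding start had 5.31 and 4.20. The stronger of the members in Zbtb16, another spermatogonial gene, had 4.69 and 3.98. The remaining named places were near Nr2f2, a stromal nuclear receptor, at 4.05 and 4.51, and near Rad21l, a meiotic cohesin, at 3.26 and 3.29. The Rad21l place is also within 1000 bp of a RefSeq mRNA start.

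RefSeq annotates an enhancer at 12 members (1.40%), 345 weaker shared distal peaks (0.604%) and 8 promoter peaks (0.0993%). The nearest genes of the 12 include the immediate-early genes Fos and Fosb. The Fos place, chr12:85455161-85455560, had 6.199 and 6.02 with 10 and 9 footprints, and the Fosb place had 5.199 and 4.86. Others were near Irf2bp2, Wnt10a, Actg1, Atoh8, Bhlhe41, Btg2, Gata2, Wee1 and Lsm6, with means from 3.46 to 6.00.

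Members were a median of 220 bp wide in replicate 1, with quartiles of 200 and 240 and a range of 100 to 700, and 353 had the same start and end in both libraries. Strong promoter peaks had the same median of 220 bp and weaker distal peaks 186 bp. The widest was chr11:58961621-58962320, 700 bp over the pseudogene Gm12260 near Trim17, at 6.93 and 8.84. Next were chr5:32713841-32714420 at the gene model Gm43852, 580 bp, the 540-bp members in Peg3 and Crybg2, and chr16:42875381-42875900, 520 bp, at the noncoding gene 4932412D23Rik near Zbtb20. All 5 were higher in replicate 2.

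Footprints were counted where they touch a member. There were a median of 5 per member in replicate 1 and 4 in replicate 2, and a mean of 4.72 and 4.77, which is 4.74 ± 0.0305 (SD, n = 2). Weaker shared distal peaks averaged 2.18 and 2.53, and strong promoter peaks 5.03 and 5.14. Per 100 bp the means were 2.08 ± 0.0134 in members, 1.23 ± 0.130 in weaker distal peaks and 2.18 ± 0.0351 in promoter peaks (SD, n = 2). The members also have the higher peak values by rule, and the part of peak value in these counts was not tested.

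**Figure D4:**
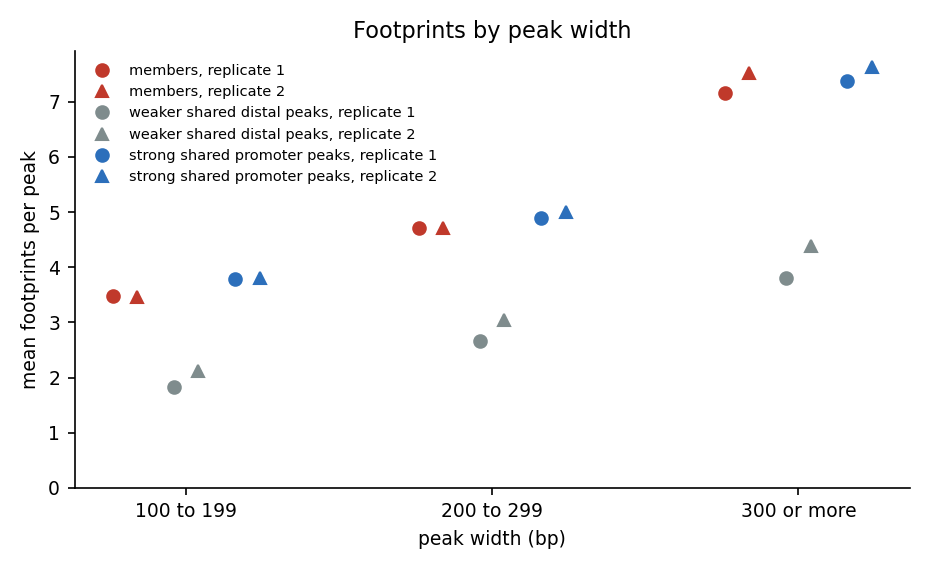
Mean footprints touching a peak (y axis, from 0) by peak width in bp (x axis), for members, weaker shared distal peaks and strong shared promoter peaks, with replicate 1 as circles and replicate 2 as triangles. In each width class the members lie close to the promoter peaks, and at 200 to under 300 bp they average 4.72 in both libraries against 2.66 and 3.03 in weaker distal peaks.

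Wider members held more footprints, from means of 3.47 and 3.46 at 100 to under 200 bp to 7.15 and 7.52 at 300 bp or more. Footprint positions were also compared between the libraries. Of 4029 footprints in members in replicate 1, 85.4% overlapped a footprint of replicate 2, and of 4070 in replicate 2, 81.8% overlapped 1 of replicate 1. In weaker shared distal peaks the shares were 57.3% and 48.9%, and in promoter peaks 86.0% and 82.1%. Footprints are denser in members than in weaker distal peaks, and the part of density in these shares, and in the shares of consensus matches under footprints given below, was not tested.

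Only 3 members lacked a footprint in a library, and they were ranks 2, 3 and 10 by mean value. The 18S rRNA place had 0 in replicate 1 and 1 in replicate 2. The Cers5 place had 2 in replicate 1 and 0 in replicate 2, and the Ubqln1 place had 0 in replicate 1 and 2 in replicate 2. Of the 57163 weaker distal peaks, 7273 had none in replicate 1 and 4360 had none in replicate 2. The 5 members with the most footprints, summed over both libraries, follow. The Trim17 place had 12 and 14, the Peg3 place 12 and 12, and the place near Pisd 11 and 13. A member at chrY:90744401-90744820 had 10 and 14, and chr7:44304861-44305340 near Clec11a had 12 and 11.

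The Peg3 member at chr7:6728441-6728980 had 9.20 in replicate 1 and 12.5 in replicate 2. It contains a smaller member, chr7:6728561-6728820, with 8.56 in replicate 1 and the same partner in replicate 2, and another member lies nearby in the intron at 4.43 and 5.76. Of its 3 copies of the YY1 consensus, the first and second lay under a footprint in both libraries and the third in replicate 2 only. This consensus was found in 15 members (1.75%), 844 weaker distal peaks (1.48%) and 438 promoter peaks (5.43%) in the central 200 bp.

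In all, 19 consensus sequences were searched on both strands in the central 200 bp of each peak, and a match describes letters only. The SP consensus GGGGCGGGG was in 129 members (15.02%), against 1.89% of weaker distal peaks and 23.7% of promoter peaks. The NFY consensus CCAATNAG was in 87 (10.1%), against 2.87% and 11.9%. Likewise NRF1 (GCATGCGC) was in 46 (5.36%), against 1.56% and 7.78%, ETS (CCGGAAGT) in 41 (4.77%), against 0.728% and 10.01%, and the cAMP response element TGACGTCA in 31 (3.61%), against 0.378% and 4.41%. For these 5 the member share lies between the 2 other sets and nearer to the promoter set in 4, all but ETS. The part of GC and CpG content in these shares was not tested.

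**Figure D5:**
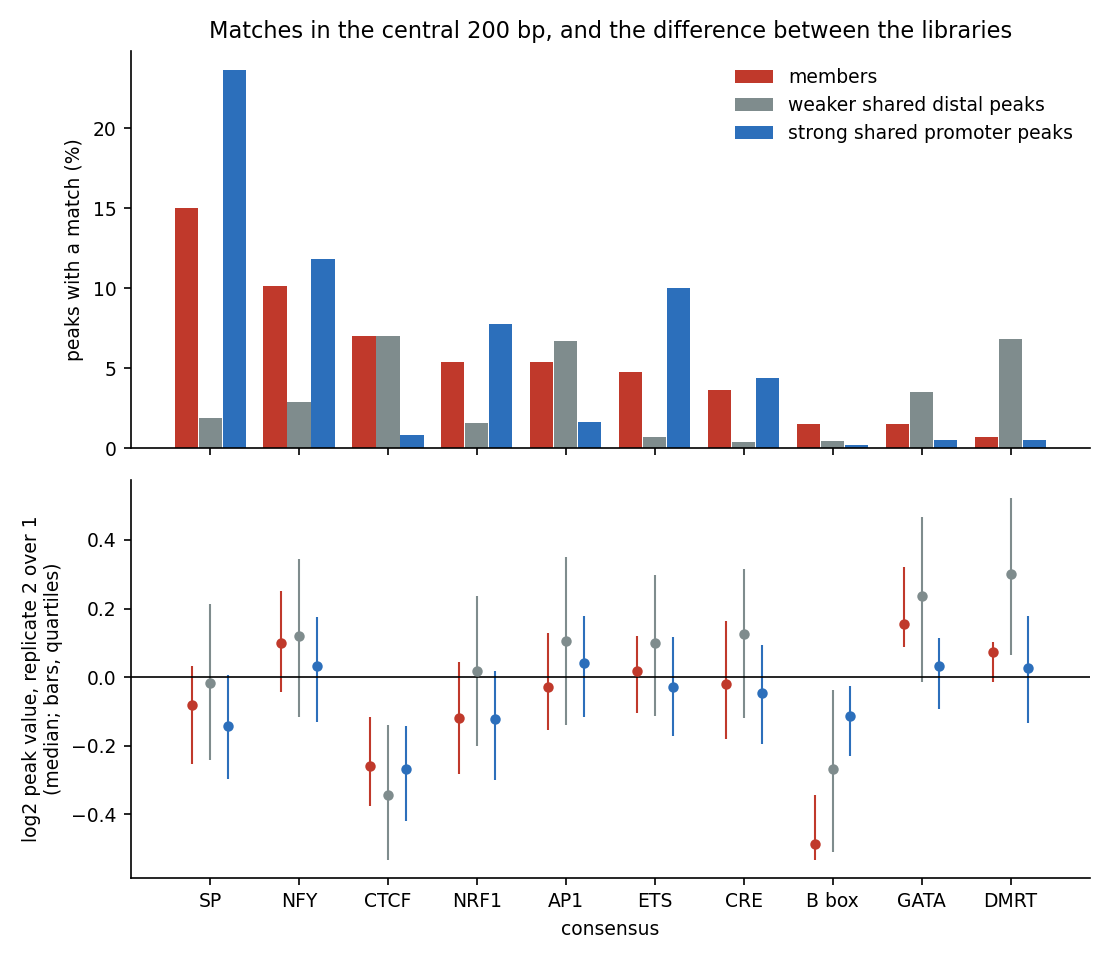
Top, percentage of peaks (y axis, from 0) with a match to each consensus in the central 200 bp, for members, weaker shared distal peaks and strong shared promoter peaks; bottom, log2 of the replicate 2 over the replicate 1 peak value for the peaks with a match, with points at the median and bars at the quartiles. CTCF is in 6.98% of members and 7.04% of weaker distal peaks, and the medians of its log2 ratio lie below 0 in all 3 sets, as do those of the B box.

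CTCF had another pattern. Its consensus was in 60 members (6.98%), 4023 weaker distal peaks (7.04%) and 67 promoter peaks (0.831%). It was scarce among the strongest, in 1 of the top 100 and in 59 of the other 759 (7.77%). A match is called under a footprint where they overlap by 1 bp or more. Of 63 matches in members, 47 were within 50 bp of the middle of the peak, and 100% and 96.8% lay under a footprint. In weaker distal peaks 94.2% and 95.2% did. The printed CTCF member near Chd2 had 13.6 and 8.70, and its consensus lay within a footprint in both libraries.

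Other consensus matches under footprints differed more between the sets. For CRE, 87.1% and 93.5% of 31 matches in members were under a footprint, against 55.2% and 65.6% in weaker distal peaks. All 13 RFX matches in members were, against 52.4% and 70.1%. The printed RFX member, in a noncoding exon with Cstad the nearest coding gene, had 18.9 and 14.9, and both of its copies lay under footprints in each library. RFX matches were in 12 members (1.40%), 0.282% of weaker distal peaks and 0.893% of promoter peaks. In the Mir22hg member the NFY consensus was under a footprint in replicate 1 and not in replicate 2.

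Other consensus sequences had lower shares in members than in weaker distal peaks. The DMRT consensus ACATTGT, read by regulators of gonadal sex, was in 6 members (0.698%) and 6.80% of weaker distal peaks. The consensus AGATAAG of the GATA family was in 13 (1.51%), against 3.51%, and the NR5A consensus TCAAGGTCA, of the steroidogenic factors, in 3 (0.349%), against 1.26%. The AP-1 consensus TGANTCA was in 46 (5.36%), against 6.72%, and the TEAD consensus CATTCCA in 16 (1.86%), against 3.76%. REST was in 1 member (0.116%), against 0.404%. Median GC was 62.8% in members and 52.3% in weaker distal peaks, and its part in these shares was not tested.

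The libraries gave close values for most members. The rule asked for 3 or more in both libraries, so this closeness is a description and no support for agreement. Replicate 1 had the higher value in 492 of the 859 (57.3%). On the log2 scale, the ratio of replicate 2 to replicate 1 had a median of -0.05 in members, with quartiles of -0.24 and 0.12. In weaker shared distal peaks it was 0.07, with quartiles of -0.21 and 0.33, and in promoter peaks -0.06. After the chromosome 12 repeat, the largest differences were at chr11:95259161-95259420 near Tac4, at 7.76 and 4.42, chr18:60596081-60596320 near Myoz3, at 6.48 and 3.78, chr6:47651121-47651320, at 6.63 and 3.88, and chr8:84639421-84639700 near Ier2, at 9.45 and 5.66. All 5 were higher in replicate 1.

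The difference between the libraries varied with the sequence in the peak. Members with a CTCF consensus had a median log2 ratio of -0.26. They were higher in replicate 1 in 88.3% of 60, against 57.3% of all members. Weaker distal peaks with that consensus had -0.34 and 86.7%, against 43.4% of all weaker distal peaks higher in replicate 1. Members with the NFY consensus had 0.10, with 32.2% higher in replicate 1, and weaker distal peaks with it 0.12. Members at tRNA genes had -0.30, close to the -0.29 of weaker distal peaks there, while promoter peaks at tRNA genes had -0.05, near the -0.06 of all promoter peaks. All 13 B box members were higher in replicate 1, with a median of -0.49. Weaker distal peaks and promoter peaks with a B box had -0.27 and -0.11. Members with a CpG ratio under 0.3 had 0.12, and those of 0.6 or more had -0.08. Depth, cell mixture and library preparation cannot be told apart here as sources of a difference between 2 libraries.

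The same values decide which peaks pass the limit in a single library, so the counts of those peaks restate the difference and add no support to it. Of 323 shared distal peaks at 3 or more in replicate 1 alone, 77 (23.8%) had the CTCF consensus, against 1 of 133 (0.752%) at 3 or more in replicate 2 alone. tRNA genes were at 22 of the 323 (6.81%) and at 1 of the 133. With peaks chosen on replicate 1 alone the CTCF share was 11.5%, and with replicate 2 alone it was 6.02%, against 6.98% in the members.

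The value limit cut through a continuous range. The 3 lowest members were chr11:69409841-69410040 near Kdm6b, at 3.02 and 3.05, chr9:20607341-20607700 at the noncoding gene Fbxl12os, at 3.01 and 3.07, and chr5:118294101-118294300, at 3.10 and 3.01. Just outside were chr12:109542941-109543160, 673 bp from a start of the imprinted noncoding gene Meg3, at 2.99 and 3.07, chr6:136468621-136468900 near Atf7ip, at 2.99 and 4.34, and chr14:31393981-31394160 near Sh3bp5, at 2.99 and 3.37.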

How the data were processed

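DNase-seq of testis was read from the peak and footprint files of 2 libraries of 1 group. Peaks carry a signal value that the authors deposited, scaled per library by steps whose meaning no source states. Each list was made from the alignments of its own library on mm10, per the deposited text descriptions. Aligner, callers and versions: not given in the sources used here. In the footprint files that the authors deposited, the p-value column is the same in every row, so positions alone were used. The false discovery rate tracks were not used.

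Members follow the rule in the opening, with the longer lists, and the replicate 2 partner is the overlapping peak with the highest value. Genes came from GENCODE vM21 and RefSeq, and sequence from GRCm38.p6. Copies of 32-base words were counted on both strands, and alignments used blastn of BLAST+ 2.17.0. Observed over expected CpG is the CpG count times length over the product of C and G counts. Overlap, distance, copy and consensus counts were checked on simulated data. Python 3.11.15, pandas 2.3.3 and pysam 0.24.0 were used.

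Named places are the 12 strongest members, the 5 widest, the 5 with most footprints, the 5 with most copies, the 8 strongest at noncoding starts, the 5 with the largest library difference, the 3 strongest in exons, the 5 farthest from genes, the 2 strongest per gene list, and 3 on each side of the value limit. Other places and genes, among them the printed CTCF, RFX and tRNA members, the linked group and the places at RefSeq enhancers, were chosen after their values were seen. Members, lists and tests were chosen with earlier results of these data known. Alternatives changed the value limit, overlap, distance, start set, peak list, library, copy limit, window and footprint rule. With 1 group, no test between groups was made. Some genes nearest to members are not reported here.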

Additional observations from a re-analysis of the deposited data

How the results depend on the processing

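No paired analysis was possible because the series has 1 group. Of 79 alternative values, 59 met the limit set for each result and 20 moved, and none changed sign. The limit was a ratio to 859 for the number of members, the SD between the libraries for width and footprints, and a 95% interval over the 859 peaks, not over samples, for shares and the library difference. The SD of width was 0, so any change of width counts as moved. A value minimum of 2 gave 1980 members with a median width of 200 bp, 19.1% at a noncoding start, 33.8% in introns and 10.4% with a CTCF consensus. A minimum of 5 gave 358 members, 31.6% at a noncoding start, 25.98% in introns, 3.35% with a CTCF consensus, and 1.68% repeat-like. A distance over 2500 bp gave a width of 200 bp and 26.6% in introns, and starts of all transcripts of protein-coding genes gave a width of 200 bp. Leaving out a library gave 996 to 1187 members, widths of 200 to 220 bp, 22.1% to 24.0% at a noncoding start, 29.0% to 32.5% in introns, 0.590% to 0.602% repeat-like, a median of 4 footprints, and 6.02% to 11.5% with a CTCF consensus. The highest CTCF share came from replicate 1 alone. Noncoding windows of 100 and 2500 bp gave 16.8% and 32.8%. Counting from 2 copies gave 2.91% repeat-like, and counting 5 alignments, chosen after seeing the data, 5.36%. The shorter peak lists gave the same 859. The depth in reads is unknown, and values near the limit of 3 cannot be ranked beyond the difference between the libraries.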
